A study of Mus musculus with 25 samples.

Results

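The 7 genes that encode the subunits of AMP-activated protein kinase (AMPK) were examined for peaks of the histone code reader Spin1 and of trimethylated lysine 4 of histone H3 (H3K4me3), the mark that Spin1 binds. They are Prkaa1, Prkaa2, Prkab1, Prkab2, Prkag1, Prkag2 and Prkag3, chosen by name as the subunit genes out of 21000 protein-coding genes with a curated RefSeq transcript. Chromatin came from primary myoblasts, cultured muscle precursor cells taken by preplating from the limb muscles of C57BL/6 mice (C57BL/6 N in the study's methods) aged 10 days, with no knockout and no treatment given in the labels. The Spin1 library was made with a custom antibody, the H3K4me3 library with an antibody that the label calls anti-H3K4me and the sample title and the study's methods call H3K4me3, and an input library without antibody was the control of the peak calls. There was 1 library per antibody, so that no value below has a replicate error and no test between conditions was possible. A preplated culture is enriched in myoblasts and can keep other cells. The series holds 25 samples, of which the 22 RNA-seq samples of control and Spin1-deleted muscle were not analysed here.

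AMPK is a sensor of cellular energy made of 3 subunits. The α subunit (Prkaa1 for α1, Prkaa2 for α2) is the kinase, the β subunit (Prkab1, Prkab2) is the scaffold and carries a glycogen-binding module, and the γ subunit (Prkag1, Prkag2, Prkag3) binds AMP, ADP and ATP. When AMP rises and an upstream kinase phosphorylates the α subunit, the enzyme promotes glucose uptake and fatty acid oxidation and slows growth. Skeletal muscle contains several of the possible complexes, and the isoforms α2, β2 and γ3 are typical of mature muscle fibers.

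The promoters of the subunit genes differed in their number of CpG dinucleotides, whose high density marks CpG islands. The 200 bases before the transcription start site (TSS) are shown for 4 promoters from the CpG-richest to the CpG-poorest of those printed, with each CG in capitals. They were read from the mm10 assembly (GRCm38) on the strand of the gene, from chr15:5143661-5143860 (plus strand) for Prkaa1, chr5:24908510-24908709 (minus strand) for the last promoter of Prkag2, chr4:105109899-105110098 (minus strand) for Prkaa2 and chr5:24995754-24995953 (minus strand) for the middle promoter of Prkag2.
Prkaa1: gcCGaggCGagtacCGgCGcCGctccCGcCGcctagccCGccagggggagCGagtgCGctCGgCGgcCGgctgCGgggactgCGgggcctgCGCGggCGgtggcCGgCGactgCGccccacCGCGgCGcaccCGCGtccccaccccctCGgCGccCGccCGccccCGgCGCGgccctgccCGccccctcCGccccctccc
Prkag2 last promoter: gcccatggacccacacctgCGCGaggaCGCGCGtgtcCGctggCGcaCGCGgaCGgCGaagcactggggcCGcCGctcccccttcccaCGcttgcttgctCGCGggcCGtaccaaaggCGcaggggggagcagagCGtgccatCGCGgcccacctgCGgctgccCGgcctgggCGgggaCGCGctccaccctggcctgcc
Prkaa2: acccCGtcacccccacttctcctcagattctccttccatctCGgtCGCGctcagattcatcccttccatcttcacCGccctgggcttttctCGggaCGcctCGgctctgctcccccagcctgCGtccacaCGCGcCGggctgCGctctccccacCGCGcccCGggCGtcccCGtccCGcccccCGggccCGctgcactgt
Prkag2 middle promoter: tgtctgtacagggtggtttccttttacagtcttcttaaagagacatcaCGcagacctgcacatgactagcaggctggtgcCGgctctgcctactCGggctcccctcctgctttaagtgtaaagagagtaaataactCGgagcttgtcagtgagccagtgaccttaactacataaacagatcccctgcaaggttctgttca
These stretches held 35 CpG in Prkaa1, 26 in the last promoter of Prkag2, 21 in Prkaa2 and 4 in the middle promoter of Prkag2. Only the last of these 4 promoters had no Spin1 peak.

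All 7 subunit genes had a Spin1 peak and an H3K4me3 peak at the promoter, defined as TSS±1 kb of every curated transcript with an overlap of at least 1 bp. Among the 21000 protein-coding genes, Spin1 was found at the promoter of 11911 (56.7%), H3K4me3 at 14281 (68.0%) and both at 11903 (56.7%). The subunit genes have 9 distinct curated TSSs, since Prkag2 has 3, and H3K4me3 was found at all 9 and Spin1 at 8. Each of these peaks covered the TSS itself. The peaks are described by their width and by their MACS score, a p-value of enrichment over input put on a negative log10 scale and multiplied by 10, which grows with depth and with peak width. Scores pile up at 3100, so that peaks with this score have no order, and the depth of both libraries is unknown. All 7 subunit genes had an H3K4me3 peak with this score. Of the 12798 protein-coding genes with an H3K4me3 score of 3100 or above, 11738 (91.7%) had Spin1.

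**Figure D1:**
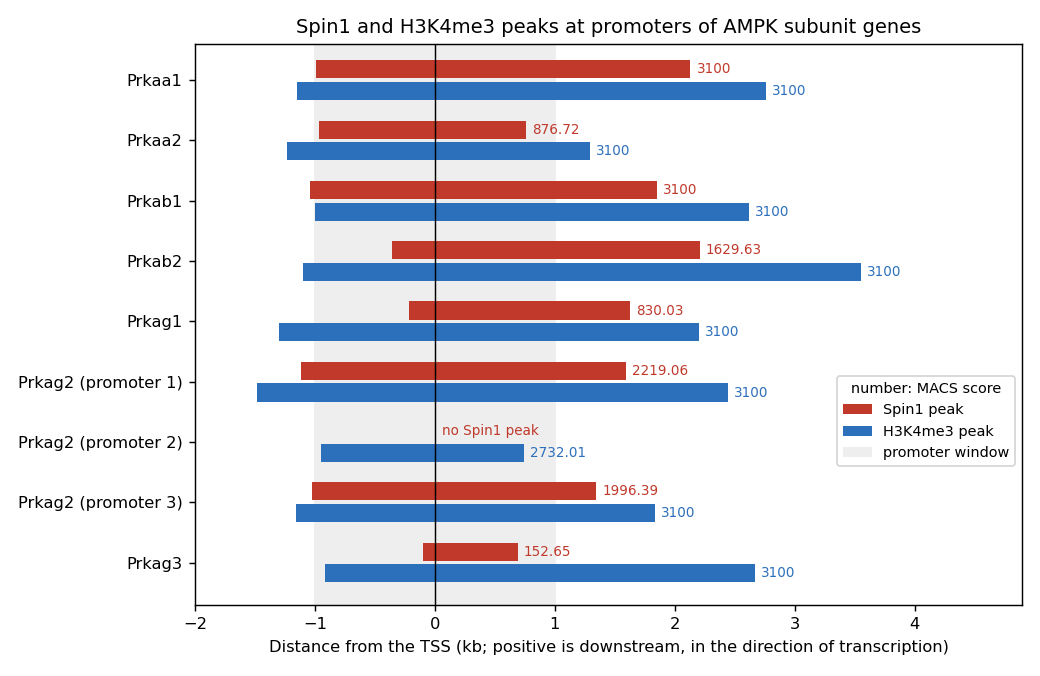
Extent of the Spin1 peaks (red) and H3K4me3 peaks (blue) at the 9 curated promoters of the AMPK subunit genes, against distance from the TSS in kb, with the score of each peak beside it and the promoter window shaded. Spin1 peaks reached from 102 to 1113 bp upstream, and the middle promoter of Prkag2 (promoter 2) had H3K4me3 without Spin1.

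The catalytic subunits differed in their Spin1 peaks. Prkaa1 starts at position 5143861 on the plus strand of chromosome 15. Its Spin1 peak (chr15:5142868-5145993) was 3126 bp wide with a score of 3100, reached from 993 bp upstream to 2132 bp downstream of the TSS and ended in intron 1. This was the widest Spin1 peak of the subunit promoters, and 78.1% of the protein-coding genes with a Spin1 peak had a narrower one. Prkaa2 starts at position 105109898 on the minus strand of chromosome 4. Its Spin1 peak (chr4:105109140-105110865) was 1726 bp wide with a score of 876.72 and reached 967 bp upstream and 758 bp downstream, also into intron 1. A narrower Spin1 peak was seen at 25.7% of the genes and a lower score at 18.4%. The H3K4me3 peaks of both genes had a score of 3100 and were 3918 bp wide at Prkaa1 and 2528 bp wide at Prkaa2. RefSeq gives each gene a further curated transcript from the same TSS with 1 exon fewer that codes for a shorter protein, of 415 instead of 559 amino acids for Prkaa1 and of 462 instead of 552 for Prkaa2. Their start codons lie 24776 bp and 57923 bp downstream of the TSS, outside both peaks, whereas those of the longer proteins lie inside both.

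The scaffold subunits had more similar Spin1 peaks. Prkab1 starts at position 116024428 on the minus strand of chromosome 5, and its Spin1 peak (chr5:116022578-116025466) was 2889 bp wide with a score of 3100. It was the only Spin1 peak of the 8 that extended past the H3K4me3 peak, by 42 bp on the upstream side, while the other 7 lay inside theirs. Prkab2 starts at position 97658212 on the plus strand of chromosome 3, and its Spin1 peak (chr3:97657855-97660423) was 2569 bp wide with a score of 1629.63. It began 357 bp upstream of the TSS and reached 2211 bp downstream into intron 2, over the start codon in exon 2. The H3K4me3 peak of Prkab2 was the widest of the subunit promoters with 4650 bp, that of Prkab1 was 3620 bp wide, and both had a score of 3100.

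The nucleotide-binding γ subunits covered the whole range. Prkag1, the γ1 gene, starts at position 98831508 on the minus strand of chromosome 15. Its Spin1 peak (chr15:98829877-98831723) was 1847 bp wide with a score of 830.03 and reached 215 bp upstream, against 1300 bp for the H3K4me3 peak, which was 3503 bp wide. The curated end of the neighbouring gene Kmt2d, a methyltransferase for lysine 4 of histone H3, lies 161 bp upstream of the Prkag1 TSS, so that the upstream part of these peaks overlaps the last exon of Kmt2d.

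Prkag2 spans 244 kb of chromosome 5 on the minus strand and has curated TSSs at positions 25100642, 24995753 and 24908509. From the first of these starts a transcript for a γ2 protein of 566 amino acids, from the middle one a protein of 443 amino acids, and from the last one proteins of 327 and 326 amino acids. The start codon of each lies in exon 1. At the first promoter, the Spin1 peak (chr5:25099050-25101755) was 2706 bp wide with a score of 2219.06 and the H3K4me3 peak 3925 bp with a score of 3100. At the last promoter, Spin1 (chr5:24907162-24909537) was 2376 bp wide with a score of 1996.39 and H3K4me3 2999 bp with a score of 3100. The middle promoter had no Spin1 peak and an H3K4me3 peak (chr5:24995009-24996704) of 1696 bp with a score of 2732.01. This was the narrowest H3K4me3 peak of the subunit promoters and the only one with a score under 3100. Thus the promoters of the longest and the shortest γ2 proteins carried Spin1 and the promoter of the intermediate protein did not, at the depth of this library.

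Genes whose widest promoter H3K4me3 peak was about as narrow as that of the middle Prkag2 promoter often had no Spin1 peak. Of 722 protein-coding genes with a widest peak within 10% of that width, 268 (37.1%) had a Spin1 peak at any of their promoters. This counts genes and not single promoters, and Prkag2 itself, with a widest H3K4me3 peak of 3925 bp, is outside the set. Spin1 at some promoters of a gene but not at others was seen elsewhere too. Of 262 genes with 3 or more curated TSSs over 5 kb apart, 51 had H3K4me3 at each TSS, and 35 of these 51 (68.6%) had Spin1 at some but not all of their TSSs. These comparison sets were chosen after the values of Prkag2 were seen.

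Prkag3 encodes γ3, the subunit found mainly in skeletal muscle fibers, and starts at position 74748955 on the minus strand of chromosome 1. Its Spin1 peak (chr1:74748263-74749057) was 795 bp wide with a score of 152.65, the narrowest and lowest of the subunit promoters. It reached 102 bp upstream of the TSS and 692 bp downstream into intron 2. The H3K4me3 peak (chr1:74746282-74749870) was 3589 bp wide with a score of 3100, wider than that of Prkaa2 and close to those of Prkab1 and Prkag1. A narrower Spin1 peak was found at 3.87% of the protein-coding genes with Spin1, and a lower score at 3.69%. The Spin1 peak had 22.2% of the width of the H3K4me3 peak, and 1.13% of the genes with both peaks had a lower share. Of 2547 genes with an H3K4me3 peak within 10% of the width of that of Prkag3, 2466 (96.8%) had Spin1, with a median Spin1 width of 2365 bp, and 28 of the 2466 (1.14%) had a Spin1 peak as narrow as that of Prkag3 or narrower. This set was also chosen after the values were seen.

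**Figure D2:**
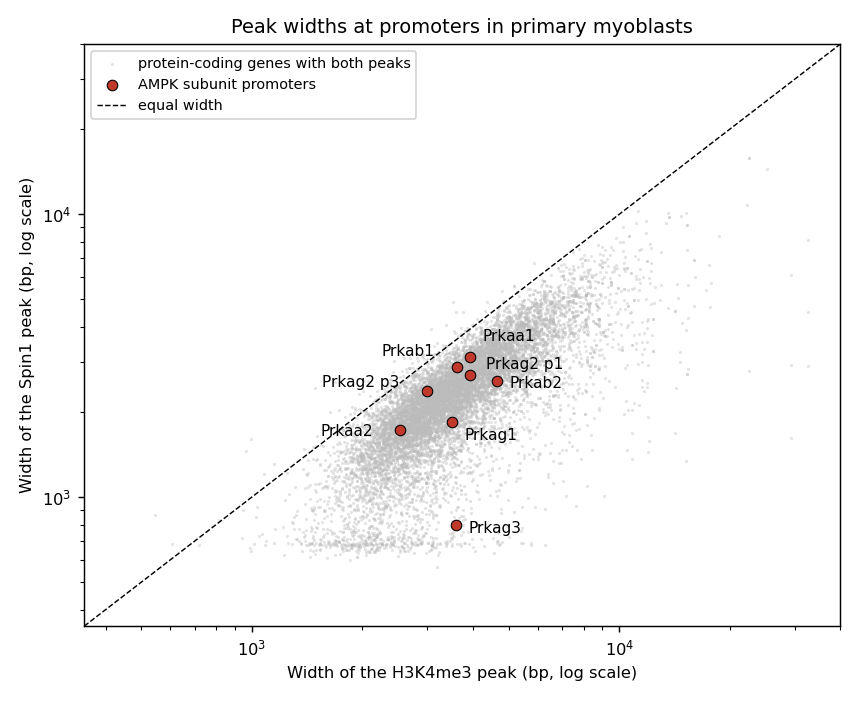
Width of the Spin1 peak against width of the H3K4me3 peak in bp, on log axes, for protein-coding genes with both peaks at the promoter (grey, widest peak per gene) and for the 8 AMPK subunit promoters with both (red, p1 and p3 being the first and the last promoter of Prkag2). Prkag3 lies at the lower edge of the cloud, with a Spin1 peak of 795 bp. The median was 2365 bp at genes with an H3K4me3 peak of similar width.

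Among promoters with a Spin1 peak, the isoform typical of mature muscle fibers had the lower Spin1 score and the narrower Spin1 peak within each subunit family. The middle promoter of Prkag2, which had no Spin1 peak, is left out of this order. Prkaa2 was below Prkaa1, Prkab2 was below Prkab1, and Prkag3 was below Prkag1 and the occupied promoters of Prkag2. The CpG content of these promoters, described below, followed the same order. The widths of the H3K4me3 peaks did not follow this order. Prkaa2 had a narrower H3K4me3 peak than Prkaa1, but Prkab2 had a wider one than Prkab1. Prkag3 had a wider one than Prkag1 and the middle and last promoters of Prkag2, and a narrower one than the first. Across families the order did not hold, since Prkag1 had a lower Spin1 score (830.03) than Prkaa2 (876.72) and Prkab2 (1629.63). As a share of the H3K4me3 peak, the Spin1 peak took 79.8% at Prkaa1, 79.8% at Prkab1, 79.2% at the last and 68.9% at the first promoter of Prkag2, 68.3% at Prkaa2, 55.2% at Prkab2, 52.7% at Prkag1 and 22.2% at Prkag3, with a median of 65.0% over all genes with both peaks. The order within families was noticed after the values were seen. The spread of widths and scores between cultures, against which it would have to be read, is unknown.

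The position of the peaks around the TSS also varied among the subunits. The Spin1 peaks of Prkab2, Prkag1 and Prkag3 had short upstream arms of 357, 215 and 102 bp, while those of the other 5 occupied promoters reached 967 to 1113 bp upstream. The H3K4me3 peaks reached 915 to 1483 bp upstream at all 9 promoters, those of Prkab2, Prkag1 and Prkag3 included, with 1098, 1300 and 915 bp. At these 3 genes Spin1 therefore left most of the upstream part of the H3K4me3 peak uncovered. A longer reach downstream than upstream was not particular to them, since every occupied promoter except that of Prkaa2 had it.

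CpG content was compared across the promoters, a feature that did not enter the choice of the genes. The observed/expected ratio of CpG in TSS±1 kb, which is 1 where CpG is as frequent as the base composition alone would give, was 0.992 at Prkaa1, higher than at 99.6% of the protein-coding genes. It was 0.771 at Prkab1, 0.738 and 0.716 at the last and the first promoter of Prkag2, 0.681 at Prkab2, 0.629 at Prkag1 and 0.603 at Prkaa2. The lowest values were 0.337 at Prkag3 and 0.326 at the middle promoter of Prkag2. Thus the subunit promoter without a Spin1 peak and the one with the narrowest Spin1 peak were the poorest in CpG. Among promoters with Spin1, the isoform typical of mature muscle fibers had the lower ratio within each subunit family. The order of Spin1 peaks by isoform can therefore not be told apart from an order by CpG content. Over all protein-coding genes the median ratio was 0.641 with both peaks, 0.455 with H3K4me3 only and 0.172 with neither. This is a description of 9 promoters, with no test.

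**Figure D3:**
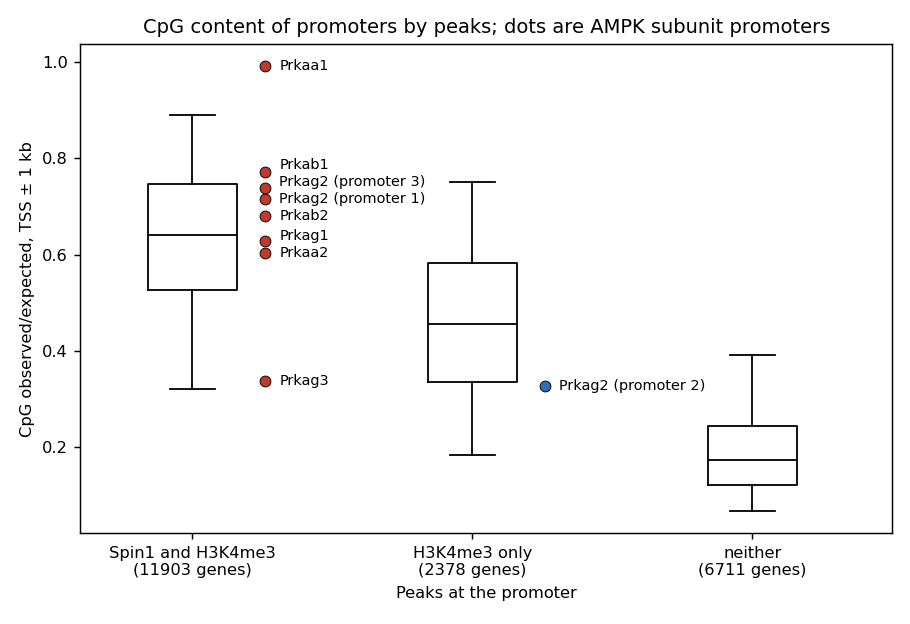
CpG observed/expected ratio in TSS±1 kb (1 TSS per gene) of protein-coding genes grouped by the peaks at any of their curated promoters (box, quartiles; line, median; whiskers, percentiles 5 and 95) and of the 9 AMPK subunit promoters (dots, each placed by its own peaks). Prkaa1 stands at 0.992 at the top, and Prkag3 and the middle promoter of Prkag2 lie near 0.33.

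Short sequence motifs were counted from 250 bases before to 50 bases after each TSS, on both strands, beside their share among the 21000 promoters of the protein-coding genes. CAGCTG, an E-box that myogenic bHLH factors such as Myod1 bind, was present in 15.2% of all promoters and in 1 of the 9 subunit promoters, that of Prkag3. CACCTG, another E-box, was present in 19.3% of all promoters and in 1 of 9, with 2 copies in the last promoter of Prkag2. CCAAT, the box bound by NF-Y, was present in 38.7% and in 3 of 9, namely at Prkag1 and at the first and middle promoters of Prkag2. TATAAA (12.8% of all promoters), GCATGCGC (3.69%, bound by NRF1) and TCAAGGTCA (0.343%, bound by estrogen-related receptors) had no match in the 9 promoters, and neither had the MEF2 motif (0.462%). The E-boxes and the CCAAT boxes at equal distance from the TSS in a pair of γ genes are shown as 30 bases of the gene's strand in mm10, with the motif in capitals, from chr1:74748978-74749007 for Prkag3, chr5:24908679-24908708 and chr5:24908542-24908571 for the last promoter of Prkag2, chr15:98831580-98831609 for Prkag1 and chr5:25100714-25100743 for the first promoter of Prkag2, all on the minus strand.
Prkag3, CAGCTG from base -40: gcagtgcgggaaCAGCTGcgggttaagcgc
Prkag2 last promoter, CACCTG from base -187: cccatggacccaCACCTGcgcgaggacgcg
Prkag2 last promoter, CACCTG from base -50: gccatcgcggccCACCTGcggctgcccggc
Prkag1, CCAAT from base -89: gaggaaggttacCCAATaaaccaggctcag
Prkag2 first promoter, CCAAT from base -89: ccacgcgccagcCCAATtgcgacgagtctt
All of these sites lie inside the H3K4me3 peak and the Spin1 peak of their promoter. This does not hold for every match. The CCAAT matches of the middle promoter of Prkag2, from bases -218 and -215, are not shown. They lie inside its H3K4me3 peak, and that promoter had no Spin1 peak. The choice of CCAAT boxes by equal distance was not set in advance. A match describes the sequence and does not show that a factor was bound.

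Peaks beyond the subunit promoters were counted as well. Together with 50 kb on each side, the 7 loci contained 22 Spin1 peaks, of which 8 lay at promoters of the subunit genes, 10 at promoters of other genes and 4 outside curated promoters. No Spin1 peak outside a promoter lay inside a subunit gene. The 4 peaks outside promoters had scores from 123.41 to 224.84, widths from 729 to 1009 bp, and each overlapped an H3K4me3 peak. The same loci contained 44 H3K4me3 peaks, of which 9 lay at subunit promoters, 16 at other promoters and 19 outside promoters, and 3 of these 19 overlapped Spin1. The share of peaks outside promoters in the whole lists was not computed, so these counts do not set the subunit loci apart. Genome-wide, the study reports most Spin1 peaks and a smaller share of H3K4me3 peaks at promoters.

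The introns of Prkag2 held 5 H3K4me3 peaks without Spin1, in addition to the 3 promoters. Their scores were 1101.6, 377.34, 222.43, 171.25 and 80.85. The strongest of them (chr5:25058459-25060025) overlapped TSS±1 kb of a predicted Prkag2 transcript, with its center 41400 bp downstream of the first curated TSS. Intron 1 of Prkaa1 held 2 H3K4me3 peaks with scores of 121.06 and 51.66, and intron 1 of Prkaa2 held 1 with a score of 85.75, all without Spin1. Upstream of Prkab1, 2 H3K4me3 peaks with scores of 652.37 and 167.95 were centered at -12412 and -16005 bp from the TSS, the latter in exon 3 of Tmem233. Centered 23525 bp downstream of the Prkab2 TSS, an H3K4me3 peak with a score of 3100 (chr3:97680496-97682978) overlapped a Spin1 peak with a score of 224.84 (chr3:97680445-97681453). Both peaks overlapped TSS±1 kb of the predicted noncoding gene Gm31242.

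**Figure D4:**
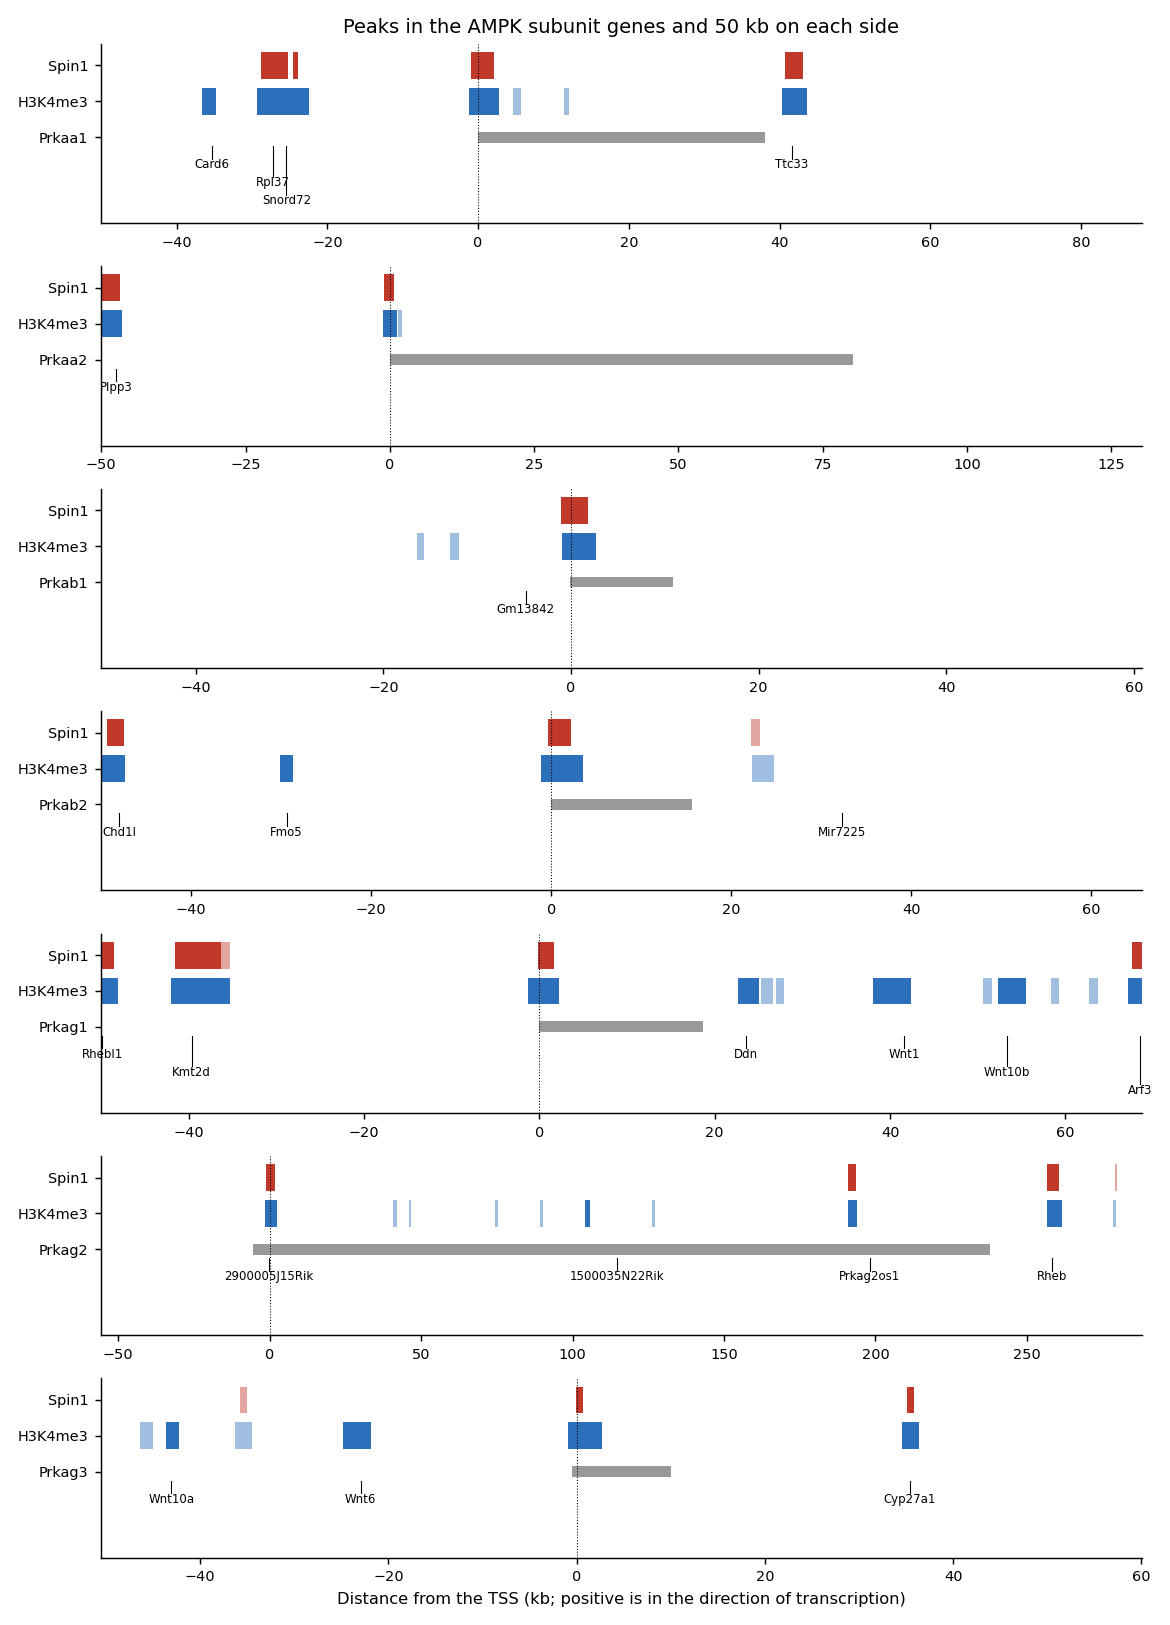
Spin1 peaks (red) and H3K4me3 peaks (blue) in each AMPK subunit gene (grey bar) and 50 kb on each side, against distance from the first listed TSS in kb, with the names of other curated genes at their TSS. Pale bars are peaks outside curated promoters, and very narrow peaks are drawn at a minimum width. Spin1 lies at the subunit promoters, and the peaks inside Prkag2 away from its outer promoters are H3K4me3 only.

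The subunit genes were compared with the genes beside them. Within the loci, 22 other genes have a curated TSS, and 18 of these had H3K4me3 and 11 had Spin1 at the promoter, so that 7 had H3K4me3 without Spin1. All of these 7 were among the 16 protein-coding neighbours. Among all protein-coding genes, 2378 (11.3%) had H3K4me3 without Spin1. Of the 7, 4 encode Wnt ligands, secreted signals of development. Wnt1 and Wnt10b lie downstream of Prkag1, and Wnt6 and Wnt10a lie upstream of Prkag3. Their H3K4me3 peaks were 4335 bp wide with a score of 3100 at Wnt1, 3138 bp with 3100 at Wnt10b, 3008 bp with 3100 at Wnt6 and 1413 bp with 1222.33 at Wnt10a. None of the 4 had a Spin1 peak at the promoter, although a Spin1 peak with a score of 123.41 lay in exon 4 of Wnt6 (chr1:74783956-74784741) under an H3K4me3 peak with a score of 3100. Thus the γ1 and γ3 promoters carried Spin1, with scores of 830.03 and 152.65. Wnt promoters from 22937 to 53358 bp away carried H3K4me3 without Spin1. The contrast depends on weak peaks being counted, since Prkag1 and Prkag3 had no Spin1 among the 50% of Spin1 peaks with top scores. The Wnt genes were not a group set in advance. The other genes with H3K4me3 only were Card6 near Prkaa1, Fmo5 near Prkab2 and Ddn near Prkag1.

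Genes with both peaks near the subunit genes included Rheb, the GTPase that activates the mTORC1 kinase complex. It lies beyond the 3′ end of Prkag2 and had a Spin1 peak of 3952 bp with a score of 3100. Its relative Rhebl1 lies upstream of Prkag1 and had a Spin1 peak of 1645 bp with a score of 1250.26. Kmt2d had a Spin1 peak of 5289 bp with a score of 3100. The noncoding gene 2900005J15Rik starts 333 bp upstream of the first Prkag2 promoter on the opposite strand, and the same Spin1 and H3K4me3 peaks cover both starts, so that they cannot be assigned to 1 of them. Beside Prkag3, the promoter of Cyp27a1, an enzyme of sterol oxidation, had a Spin1 peak of 661 bp with a score of 109.72.

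The genes that act with AMPK were examined as 7 lists with 47 genes. Both peaks were found at the promoters of 43 (91.5%), against 56.7% of all protein-coding genes, and H3K4me3 at 44 (93.6%), against 68.0%. All 44 had an H3K4me3 score of 3100. Of these 44, 43 had Spin1. Among the 12798 protein-coding genes with an H3K4me3 score of 3100 or above, 11738 (91.7%) had Spin1. Whether the lists differ from such genes was not tested. Spin1 scores were at 3100 or above for 29 of the 43 and for 48.9% of all protein-coding genes whose promoter had Spin1.

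All 8 genes of upstream kinases and their complexes had both peaks. Stk11 (LKB1), the main kinase of the α subunit, had a Spin1 peak of 3982 bp with a score of 3100, its partner Cab39 had 3176 bp and 3100, and Camkk2, the calcium-dependent kinase of the α subunit, had 2555 bp and 2567.46. Camkk1 had the lowest score of the list with 702.39. All 6 regulators, the folliculin and sestrin genes, had both peaks. Among them Flcn had a Spin1 peak of 3000 bp with a score of 3100 and Sesn3 had the lowest score with 656.75.

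Of 12 AMPK-related kinases, which Stk11 also phosphorylates, 11 had both peaks. Brsk2, a kinase known from neurons, had H3K4me3 of 2385 bp with a score of 3100 and no Spin1. Its relative Brsk1 had the lowest Spin1 score of the list with 278.93, and Nuak1 had the widest Spin1 peak with 4609 bp.

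Among AMPK substrates, all 5 genes of glucose uptake and glycogen had both peaks. Tbc1d1 and Tbc1d4, which control the traffic of glucose transporters, had Spin1 scores of 1402.86 and 1911.8, and Gys1, the muscle glycogen synthase, had 3100. All 9 genes of growth control, autophagy, mitochondria and transcription had both peaks. The Spin1 score was lowest at Ppargc1a, a coactivator of mitochondrial genes, with 1195.3, and 7 of the 9 were at 3100 or above and have no order.

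Genes of fatty acid metabolism and mature muscle were more mixed. Among the lipid substrates, Srebf1 had both peaks, and the acetyl-CoA carboxylase genes Acaca and Acacb had neither at their curated TSS. Both genes have further predicted TSSs in RefSeq, and both peaks were present at some of these and absent from others, with Spin1 scores of 2311 and 3100 where present at Acaca and of 392.68 at 1 of 3 predicted TSSs of Acacb. Their absence at the curated TSS therefore does not describe the whole gene. Of 3 genes of muscle fuel use, Hk2 had a Spin1 peak of 3338 bp with a score of 3100, Cpt1b, the muscle form of the mitochondrial fatty acid carrier enzyme, had neither peak, and Slc2a4, the insulin-responsive glucose transporter GLUT4, had a Spin1 peak of 963 bp with a score of 156.27 under an H3K4me3 peak of 2710 bp with a score of 3100. The Slc2a4 score was the lowest of the 43 and close to that of Prkag3.

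**Figure D5:**
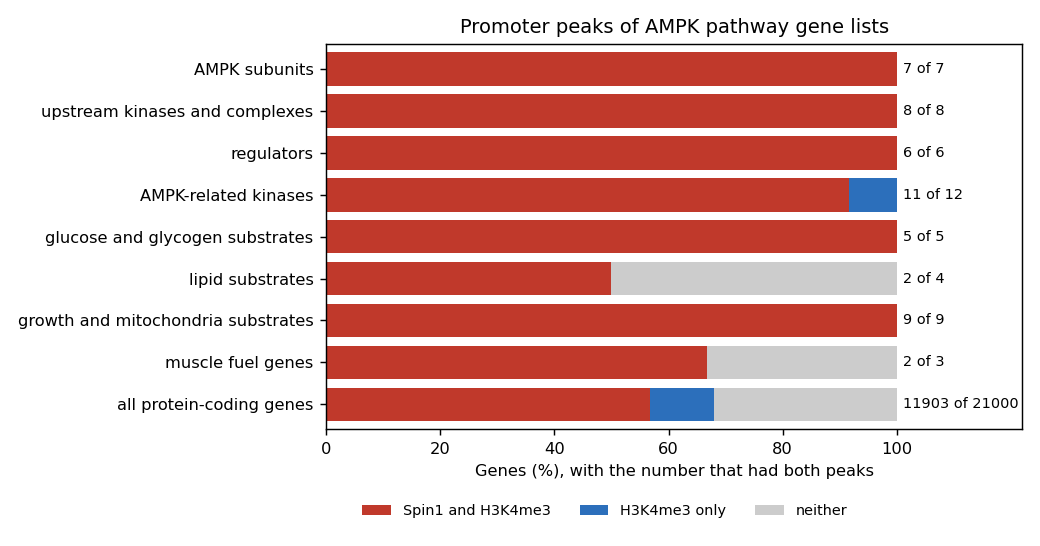
Percent of genes with both peaks (red), with H3K4me3 only (blue) and with neither (grey) at the curated promoters, for the AMPK subunits, 7 lists of AMPK pathway genes and all protein-coding genes, with the number that had both peaks at the right. The 8 protein-coding genes with Spin1 only are not drawn. Genes without Spin1 were in the lists of AMPK-related kinases, lipid substrates and muscle fuel genes.

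The identity of the culture was checked with marker genes, whose peaks describe the state of promoters and not levels of RNA. All 6 myoblast markers had both peaks, with Spin1 scores from 1494.67 at Myf5 to 3100 at Myod1, Pax7 and others. Of 4 fibroblast markers, Pdgfra, Col1a1 and Tcf7l2 had both peaks, with Spin1 scores of 2392.84, 1275.06 and 3100, and Thy1 had H3K4me3 only. The Spin1 scores of myoblast and fibroblast markers overlapped, so they do not tell these cell types apart. The endothelial marker Pecam1 and the leukocyte marker Ptprc had neither, while Cdh5 and Cd68 had H3K4me3 with scores of 246.19 and 51.78. Of 4 markers of mature fibers, Acta1 had both peaks, Ckm had H3K4me3 only, and the myosin genes Myh4 and Myh7 had neither. The part of fibroblasts or of other cells in the peaks of the subunit genes was not tested.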

How the data were processed

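The authors mapped reads of the ChIP-seq libraries to mm10 with bowtie 2 and called peaks against input with MACS 1.4.2, and peaks with a false discovery rate above 1% were removed. For each peak they deposited its start, end and score (a p-value on a negative log10 scale, multiplied by 10). No read counts were given, so depth, precision and the limit of detection are unknown. Duplicates and the choice of input also enter the score, and peaks too weak to be called are missing from the lists without a trace. The Spin1 list held 17106 peaks and the H3K4me3 list 30763.

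Starts were counted from 1. TSSs, exons and sequences were taken from RefSeq annotation of GRCm38.p6, the assembly that mm10 names, with curated transcripts only. Promoters were TSS±1 kb, loci the gene with 50 kb on each side, and an overlap of 1 bp counted. For genes with several peaks, the widest peak and the highest score were used. Percentiles are the share of protein-coding genes with a lower value. The counting was tested on simulated peaks. Genes were named by a rule, namely all subunit genes, genes with a TSS in their loci that bear on a peak, list genes without H3K4me3 or Spin1, and up to 4 others per list. Which others were named was decided with their values in view, as were the sets matched on peak width. The values of 1 list gene are not reported here. The members and lists were chosen with earlier results of these data known. No test was made, since each antibody had 1 library. Alternatives were other windows, TSS sets, flanks and score limits. The input and 22 RNA-seq samples were not used. Python 3.11.15, pandas 2.3.3, NumPy 2.4.6, pysam 0.24.0, samtools 1.23 and matplotlib 3.10.9 were used.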

Additional observations from a re-analysis of the deposited data

How the results depend on the processing

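No paired analysis was possible because no result comes from a test and each antibody had 1 library. Of 52 values computed under alternative settings for 7 counts, 46 stayed within 1.5 times the reported count. All 7 subunit genes kept a Spin1 peak at the promoter with TSS±0.5 kb, TSS±2 kb, 1 kb upstream to 0.1 kb downstream, 1 TSS per gene, predicted transcripts added, a score of at least 100, and the peak center inside the window. When each list was reduced to its 50% of peaks with top scores, 4 of 7 kept Spin1 and 4 both peaks, and Prkaa2, Prkag1 and Prkag3 dropped out, while 7 kept H3K4me3. With the peak center inside the window, Prkab2 lost H3K4me3. The Spin1 peaks outside promoters numbered 0 in these reduced lists, 1 with flanks of 25 kb and 10 with flanks of 100 kb, instead of 4. The H3K4me3 peaks outside promoters numbered 3 in the reduced list, instead of 19. Of the 47 pathway genes, 38 to 45 had Spin1 and 30 to 46 had H3K4me3 over the alternatives, the lowest H3K4me3 count being that with the peak center inside the window. The unknown depth limits every absent peak, and peaks with scores under 200, such as that of Prkag3, lie closest to the limit of the lists.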
